A study of Mus musculus with 4 samples.

Results

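The Hox genes of the 4 mammalian clusters and the TALE homeobox genes whose proteins pair with Hox proteins were followed in LSK cells, the lineage-negative, c-Kit-positive and Sca1-positive bone marrow fraction that holds haematopoietic stem cells and multipotent progenitors. The set was chosen by name: 43 genes, 38 of them Hox genes (10 Hoxa, 10 Hoxb, 9 Hoxc and 9 Hoxd) and 5 TALE genes (Meis1, Meis2, Pbx2, Pbx3 and Pknox1). Probe sets annotated to 1 gene alone were found for 38 of the 43, through 63 probe sets, out of 18193 genes and 45037 probe sets measured. The 5 others, Hoxa6, Hoxb8, Hoxc11, Hoxc12 and Hoxd4, had no such probe set in the annotation used and were not analysed.

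Marrow from the femurs of mice labelled as wild type, on a B6/129 strain, was sorted for LSK cells and then for how much of a c-Myc-eGFP protein they held, into a Hi group and a Lo group, each on 2 Affymetrix mouse arrays. Cells of both groups carried the fusion protein and differed in its amount, and the labels give neither the ages of the mice nor the number of mice behind a sample. Nothing in the labels says that replicates came from separate mice, so the p-values below measure the spread between these samples, which may be technical. The number of arrays, 2 per group, limits the precision of every value.

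Hox proteins are homeodomain transcription factors whose genes lie in clusters in which genes of the same number, the paralogue groups, are related between clusters. Low-numbered genes stand at the 3′ end of a cluster and high-numbered ones at its 5′ end. Meis, Pbx and Pknox proteins belong to the TALE class of homeodomain proteins and bind DNA together with Hox proteins. In blood, Hoxa and Hoxb genes together with Meis1 are known to be active in stem and early progenitor cells and to be shut off as cells mature, and forced expression of Hoxa9 with Meis1 drives myeloid leukaemia in mice.

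Promoters of 4 genes that were dimmer in Hi are shown for the context of the later values, each as the 250 bases before the RefSeq start (assembly GRCm38.p6), 5′ to 3′ on the strand of the gene. They are Hoxa2, Hoxa3 and Hoxa5 of the HoxA cluster, and Meis1. Capitals mark matches on either strand to 3 motifs: the E-box CACGTG that c-Myc with Max is known to bind, TGACAG of Meis and Pknox proteins, and TGATTNAT of Pbx with Hox proteins. The windows lie at chr6:52164832-52165081 (Hoxa2), chr6:52213068-52213317 (Hoxa3), chr6:52204588-52204837 (Hoxa5) and chr11:19018970-19019219 (Meis1), all on the minus strand.
Hoxa2: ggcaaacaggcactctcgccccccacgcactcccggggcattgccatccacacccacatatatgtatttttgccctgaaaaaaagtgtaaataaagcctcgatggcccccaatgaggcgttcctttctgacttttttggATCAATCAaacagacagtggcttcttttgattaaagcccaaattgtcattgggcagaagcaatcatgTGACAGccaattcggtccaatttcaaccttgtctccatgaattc
Hoxa3: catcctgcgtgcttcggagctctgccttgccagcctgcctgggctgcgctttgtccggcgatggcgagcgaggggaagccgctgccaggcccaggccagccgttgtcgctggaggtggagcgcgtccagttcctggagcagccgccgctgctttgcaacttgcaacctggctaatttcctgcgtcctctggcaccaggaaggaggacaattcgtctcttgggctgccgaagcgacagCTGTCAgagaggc
Hoxa5: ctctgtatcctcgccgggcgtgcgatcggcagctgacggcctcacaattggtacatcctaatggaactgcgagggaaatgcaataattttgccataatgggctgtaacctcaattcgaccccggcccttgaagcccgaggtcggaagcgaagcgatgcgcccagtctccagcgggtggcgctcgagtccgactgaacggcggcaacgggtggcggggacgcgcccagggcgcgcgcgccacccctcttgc
Meis1: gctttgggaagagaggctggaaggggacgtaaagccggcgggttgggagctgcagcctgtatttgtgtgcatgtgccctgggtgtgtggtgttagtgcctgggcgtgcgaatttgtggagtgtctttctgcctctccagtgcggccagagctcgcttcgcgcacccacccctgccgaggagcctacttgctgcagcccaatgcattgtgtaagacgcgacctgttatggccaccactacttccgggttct
The Hoxa2 window held 1 match to TGACAG and 1 to TGATTNAT, the Hoxa3 window 1 match to TGACAG, and the Hoxa5 and Meis1 windows 0 matches to any of the 3 motifs. None of these 4 windows held CACGTG. RefSeq draws Hoxa3 across Hoxa4, Hoxa5 and Hoxa6, so its window lies upstream of the Hoxa5 window, at the start of that long transcript. RefSeq windows were at hand for 25 of the 43 genes, as 27 windows. CACGTG occurred in 4 of the 27 (14.8%), those of Hoxd1, Hoxd10, Hoxd11 and Hoxd13, against 6.02% of all 32851 windows in the table. TGACAG occurred in 2 of the 27 (7.41%), against 15.9% of all windows, and TGATTNAT in 2 of the 27 (7.41%, Hoxa2 and Hoxd11), against 2.83% of all windows. A match is a description of these letters only, and nothing about binding was measured.

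The arrays were processed by the authors with RMA, and the values are RMA intensities on the log2 scale. On each array a dim limit was set by the bacterial-transcript controls, as the highest of their 27 probe sets. It was 4.87 and 4.86 on the Hi arrays, against 4.74 and 4.78 on the Lo arrays. A gene was represented by whichever of its probe sets had the highest 4-array mean, and it counted as above the dim limit where both arrays of at least 1 group were above it. Intensities of different probe sets are not compared with each other, since probes differ in their response.

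The HoxA and HoxB clusters held 12 of the 14 Hox genes above the limit. Of the 38 measured genes 18 were above it: 7 of 9 Hoxa genes, 5 of 9 Hoxb genes, 1 of 7 Hoxc genes, 1 of 8 Hoxd genes and 4 of 5 TALE genes. By the same rule 12644 of all 18193 genes were above the limit. HoxA and HoxB, with 12 of 18, lay near that share, and HoxC and HoxD, with 2 of 15, lay under it. Among 3′ and central genes of HoxA and HoxB, both Hi arrays lay below both Lo arrays for Hoxa2, Hoxa3, Hoxa5, Hoxb2, Hoxb3 and Hoxb5. The same held for Hoxa9 and Meis1. Apart from Hoxa2, which had 1 Hi array under the limit, these genes were lower by 1.62-fold for Hoxa9 to 5.95-fold for Hoxb5. Pbx2 and Pbx3 also lay below, by 1.38-fold and 1.41-fold, as did Hoxa4 close to the limit. Pknox1 went the other way, 1.43-fold higher in Hi. Both Hi arrays of Hoxd12 also lay above both Lo arrays, but close to the limit, which it passed through the Hi arrays only. The groups of Hoxa7, Hoxa10, Hoxb4, Hoxb13 and Hoxc6 overlapped. No single probe set of the 63 passed an adjusted p of 0.05 in the limma fit over 45037 probe sets (smallest adjusted p = 0.0906), and of all 45037 none passed (0.0%). At an unadjusted limma p under 0.05, 16 of the 63 probe sets lay lower in Hi and 4 higher, some of them from the same gene. Of all probe sets 8.91% lay lower and 9.05% higher. Counting the 1 probe set that represents each gene, 10 of the 38 genes lay lower and 3 higher, against 11.0% and 9.25% of all genes. The 10 included Hoxb6 and the 3 included 2 Hoxd genes, none of these above the limit. In an alternative fit in which the probe sets of each gene were averaged first, Hoxb3 and Hoxa5 were lower in Hi (adjusted p = 0.0359 and 0.0371 by limma) and 0 members were higher, where 1.52% of all genes were lower and 1.39% higher. With 1 probe set per gene, Hoxb3 alone of the members passed (limma adjusted p = 0.0486), where 1.18% of all genes were lower.

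**Figure D1:**
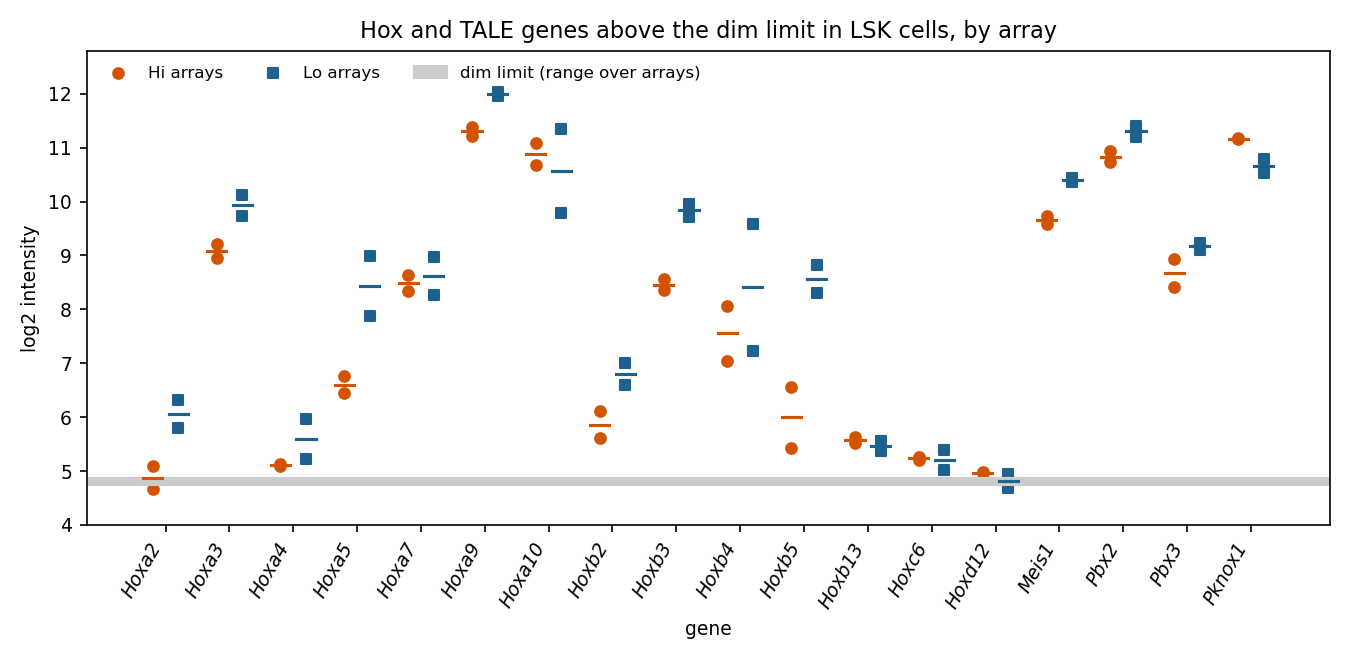
Log2 intensity (vertical axis) of the 18 Hox and TALE genes above the dim limit, with each Hi array as an orange circle, each Lo array as a blue square, group means as short lines and the range of the dim limit as a grey band. Hoxb3, Hoxb5, Hoxa5 and Meis1 have both Hi arrays below both Lo arrays, Pknox1 has both above, and the Lo arrays of Hoxb4 and Hoxa10 lie far apart.

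Counted over all 38 measured genes, the 2 Hi values were under the 2 Lo values in 13 and over them in 10, against 25.4% and 30.0% of all 18193 genes. The pattern differed by cluster. In HoxA and HoxB 10 of 18 genes lay below and 1 above, while in HoxC and HoxD 0 of 15 lay below and 8 above. Among the 12 Hoxa and Hoxb genes with a mean over all 4 arrays above the limit, 8 lay below and 0 above, where 31.8% of all genes as bright lay below and 29.1% above. Among the 13 Hoxc and Hoxd genes with a mean at or under the limit, 7 lay above and 0 below. Of all genes as dim, 32.0% lay above and 10.8% below. The limit itself was higher on both Hi arrays than on both Lo arrays, and its bearing on these counts was not tested. Leaving out Lo replicate 2, the count below was 20 of the 38 in place of 13. Without Lo replicate 1 the count above was 17 in place of 10. Fewer arrays leave less room for overlap, so the shares of all genes given above do not apply to these 2 counts. The median log2 difference was -0.49 for Hoxa, -0.85 for Hoxb, 0.16 for Hoxc, 0.17 for Hoxd and -0.50 for the TALE genes, beside 0.03 for all genes. The Hoxb median was -0.34 without Hi replicate 2 and -0.20 without Lo replicate 1. These medians describe the lists, which were not tested as lists.

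**Figure D2:**
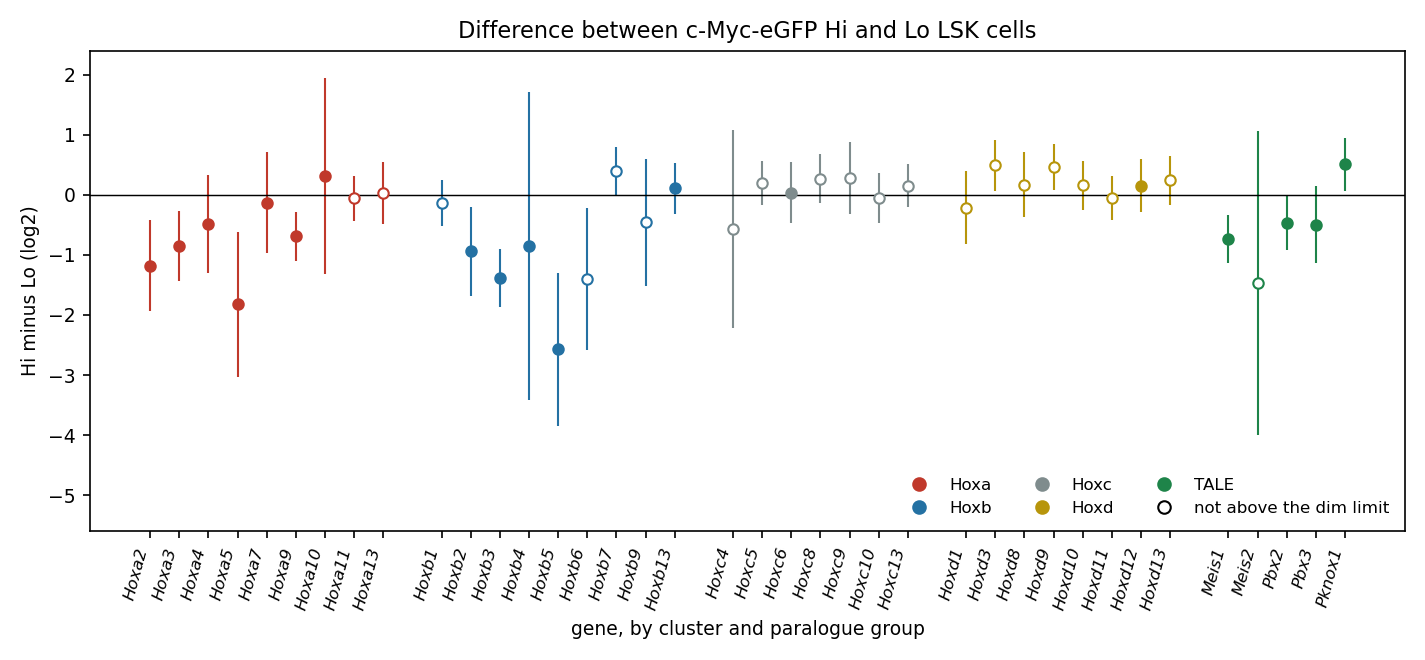
Difference of Hi minus Lo on the log2 scale (vertical axis) for the 38 measured genes, grouped by cluster and ordered by paralogue group, with 95% confidence intervals from the limma fit over all 4 arrays; open circles are genes not above the dim limit on both arrays of either group. Hoxa and Hoxb genes of low number lie below 0, down to -2.57 for Hoxb5, while Hoxc and Hoxd genes lie around 0.

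Paralogue group 5 had the lowest differences of the 2 clusters. Hoxb5, a gene used in mice to mark long-term repopulating stem cells, had log2 intensities of 6.56 and 5.43 on the Hi arrays, against 8.31 and 8.83 on the Lo arrays. Both Hi arrays lay well under both Lo arrays, although the Hi arrays differed from each other by 1.13. The log2 difference was -2.57 ± 0.46 (SE), 5.95-fold lower in Hi, with a limma adjusted p of 0.123. Hoxa5 had 6.77 and 6.44 on the Hi arrays, against 8.99 and 7.87 on the Lo arrays. Its difference was -1.83 ± 0.44 (SE; adjusted p = 0.17 by limma). The other Hoxa5 probe set had 6.79 and 6.79 in Hi, against 8.04 and 8.44 in Lo, a difference of -1.45 ± 0.19 (adjusted p = 0.0964). Thus both probe sets of Hoxa5 had groups that did not overlap, and their mean gave -1.64 ± 0.18 in the fit over gene means.

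Group 3 was lower in both clusters as well. Hoxb3 had 8.36 and 8.57 in Hi, against 9.96 and 9.72 in Lo. The arrays of each group lay within 0.24 of each other, and the difference was -1.38 ± 0.17 (SE), 2.61-fold lower in Hi (limma adjusted p = 0.0949). Its second probe set had 5.08 and 5.38 in Hi, against 6.77 and 6.79 in Lo, a difference of -1.55 ± 0.17 and the smallest adjusted p among the members. Hoxa3 had 9.21 and 8.95 in Hi, against 10.13 and 9.74 in Lo, a difference of -0.86 ± 0.21 (SE; limma adjusted p = 0.176). Of its 3 other probe sets, 2 were lower in Hi without overlap, at -0.51 and -0.86, and 1 at 0.28 was under the dim limit on all arrays. RefSeq draws Hoxa3 across Hoxa4, Hoxa5 and Hoxa6, and Hoxb3 across Hoxb4, so some transcripts of these neighbours overlap and the probe sets were named as the annotation gives them.

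Group 2 had its groups apart too. Hoxa2 had 4.67 and 5.09 in Hi, against 5.80 and 6.33 in Lo. It passed the limit through the Lo arrays, since only 1 Hi array was above it, and its difference was -1.18 ± 0.27 (SE; limma adjusted p = 0.163). Hoxb2 had 5.61 and 6.12 in Hi, against 7.01 and 6.59 in Lo, with a difference of -0.94 ± 0.27 (SE; limma adjusted p = 0.207).

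Group 4 was less even. Hoxb4, known for expanding stem cells when it is forced on, had 8.07 and 7.04 in Hi, against 9.59 and 7.23 in Lo. The groups overlapped and the Lo arrays differed by 2.36, so the log2 difference of -0.85 ± 0.92 (SE; 95% interval -3.42 to 1.71) was smaller than the spread between replicates, and it was 0.33 without Lo replicate 1. Its second probe set was near the dim limit on all arrays, with 4.66 and 5.04 in Hi, against 5.14 and 4.83 in Lo. Hoxa4 had 5.10 and 5.13 in Hi, against 5.97 and 5.23 in Lo. Lo replicate 2 was only just above the Hi arrays, and the difference of -0.49 ± 0.29 (SE) had a limma adjusted p of 0.463. Leaving out Lo replicate 1 gave -0.12, and leaving out Lo replicate 2 gave -0.86.

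Among the measured genes of groups 7 to 13 in HoxA and HoxB, Hoxa9 alone had its groups apart below. Hoxa9, whose loss impairs stem cell repopulation in mice, had 11.21 and 11.39 in Hi, against 11.96 and 12.03 in Lo. The groups were apart and tight, with a difference of -0.69 ± 0.15 (SE), 1.62-fold lower in Hi (limma adjusted p = 0.147). The second Hoxa9 probe set had 9.04 and 8.92 in Hi, against 9.27 and 9.46 in Lo, a difference of -0.39 ± 0.15. Hoxa7 had 8.34 and 8.64 in Hi, against 8.26 and 8.97 in Lo. Its groups overlapped, and its difference of -0.13 had a 95% interval from -0.97 to 0.71. Hoxa10, like Hoxa9 a leukaemia-linked gene of the 5′ part, had 11.08 and 10.67 in Hi, against 11.34 and 9.78 in Lo. Both Hi arrays lay between the Lo arrays, and the difference of 0.32 (95% interval -1.31 to 1.95) was -0.46 without Lo replicate 2. Hoxb13 stood at 5.64 and 5.51 in Hi, against 5.56 and 5.37 in Lo, with a difference of 0.11 ± 0.15 (SE).

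**Figure D3:**
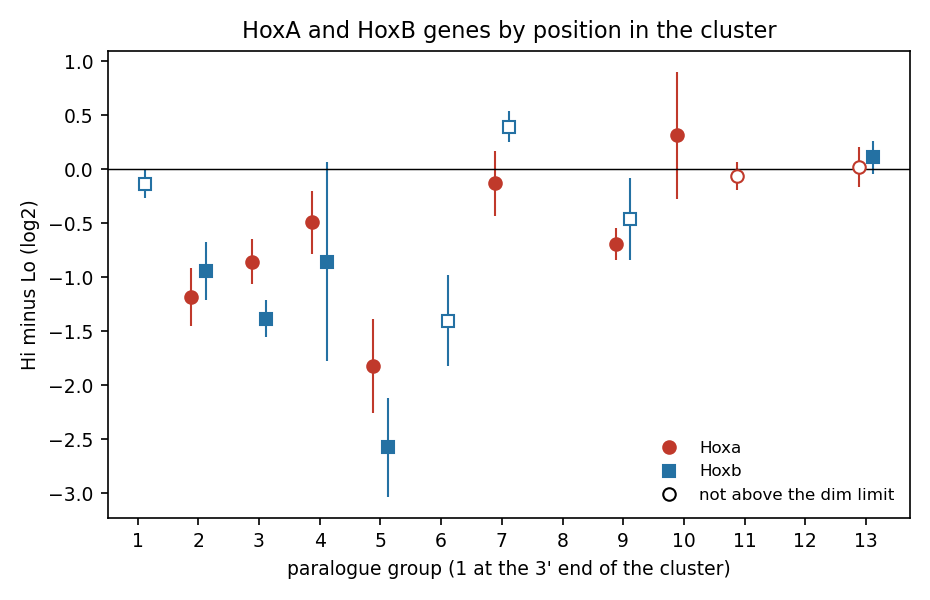
Difference of Hi minus Lo on the log2 scale (vertical axis, bars are the moderated SE) against paralogue group (horizontal axis) for the 9 measured Hoxa genes (circles) and 9 Hoxb genes (squares); open symbols are genes not above the dim limit. The measured genes of groups 2 to 6 lie below 0, with the lowest values at group 5, and those of groups 10 to 13 lie between -0.06 and 0.32.

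Sorted by position, the 7 measured Hoxa and Hoxb genes of groups 1 to 4 were all lower in Hi by their difference (median -0.86), with both Hi arrays below both Lo arrays in 6 of the 7. In groups 5 to 8, 4 of 5 had a negative difference (median -1.40) and 3 of the 5 had groups apart below. In groups 9 to 13, 3 of 6 had a negative difference (median -0.02), and Hoxa9 alone had groups apart below. The median of -1.40 is the value of Hoxb6, which was not above the limit. Among genes with a mean over all 4 arrays above the limit, 5 of 6 lay below in groups 1 to 4 (median -0.90). In groups 5 to 8 this held for 2 of 3 (median -1.83), and in groups 9 to 13 for 1 of 3 (median 0.11). Of all genes 25.4% lay below, and of all genes as bright 31.8%. The difference between positions was not tested.

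Among the dim Hox genes, Hoxb6 had 3.17 and 3.72 in Hi, under the limit, against 5.35 and 4.34 in Lo, where 1 array was above it. The fitted log2 difference was -1.40 ± 0.43 (SE; limma adjusted p = 0.227), and no fold is given because 3 of the 4 arrays were under the limit. Hoxb9 likewise had 4.88 and 4.23 in Hi, against 5.40 and 4.63 in Lo, and its groups overlapped. The remaining Hoxa and Hoxb genes that were not above the limit, Hoxa11, Hoxa13, Hoxb1 and Hoxb7, differed by -0.13 to 0.40. Of the Hoxc and Hoxd genes, only Hoxc6 and Hoxd12 were above the limit. Hoxc6 had 5.21 and 5.25 in Hi, against 5.38 and 5.02 in Lo, and Hoxd12 had 4.96 and 4.98 in Hi, against 4.95 and 4.68 in Lo. These values are close to the limit, and the differences of 0.03 ± 0.18 and 0.16 ± 0.16 (SE) were within their errors. Hoxd12 passed the limit through the Hi arrays, since only 1 Lo array was above it. The other 13 Hoxc and Hoxd genes ran from 2.36 to 5.07 in Hi and from 2.15 to 5.18 in Lo. Their differences lay between -0.57 for Hoxc4, whose Hi arrays stood at 5.07 and 3.56, and 0.50 for Hoxd3. Of the paralogues of the lower Hoxa and Hoxb genes, Hoxd3 and Hoxc5 were under the limit on all arrays. Hoxd3 had 3.77 and 3.67 in Hi, against 3.12 and 3.33 in Lo. Hoxc5 had 4.09 and 4.06 in Hi, against 3.84 and 3.91 in Lo.

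The TALE genes split. Meis1, the partner of Hoxa9 and a gene needed to maintain adult stem cells in mice, had 9.74 and 9.58 in Hi, against 10.43 and 10.37 in Lo. The groups were apart by several times the spread within either, and the difference was -0.74 ± 0.14 (SE), 1.67-fold lower in Hi (limma adjusted p = 0.134). Both further Meis1 probe sets were lower without overlap, one with 8.93 and 8.51 in Hi, against 10.27 and 9.63 in Lo (difference -1.23 ± 0.30), and the other with 6.82 and 6.64 in Hi, against 8.19 and 7.30 in Lo (difference -1.02 ± 0.35). Meis2 was under the dim limit on both Hi arrays and 1 Lo array, and stood at 5.23 on Lo replicate 2 alone. Its 4 probe sets did not have the same sign.

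Pknox1, also called Prep1, which binds DNA as a partner of Pbx proteins, had 11.17 and 11.17 in Hi, against 10.53 and 10.79 in Lo. The Hi arrays were both higher than either Lo array, with a difference of 0.51 ± 0.16 (SE), 1.43-fold higher in Hi (limma adjusted p = 0.233). Its further probe sets had 7.26 and 7.58 in Hi, against 6.53 and 6.81 in Lo, and 9.88 and 9.77 in Hi, against 9.23 and 9.61 in Lo. All 3 were therefore higher without overlap, by 0.40 to 0.75. For Pbx2 the probe sets disagreed: the first had 10.94 and 10.73 in Hi, against 11.40 and 11.21 in Lo (difference -0.47 ± 0.16), while the other 2 overlapped at -0.19 and 0.09. Pbx3, a cofactor of Hoxa9 in leukaemia, had 8.94 and 8.42 in Hi, against 9.11 and 9.24 in Lo. The groups were narrowly apart, at -0.50 ± 0.23 (SE; limma adjusted p = 0.371) and at -0.23 without Hi replicate 2, and those of its second probe set overlapped at -0.30.

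**Figure D4:**
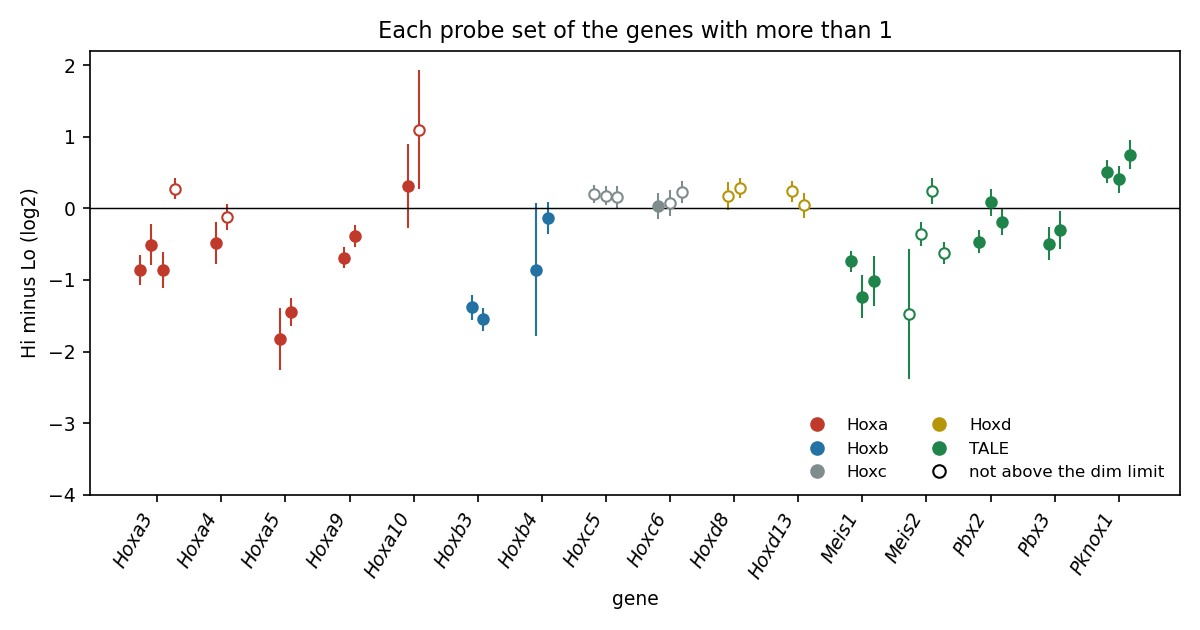
Difference of Hi minus Lo on the log2 scale (vertical axis, bars are the moderated SE) for every probe set of the 16 genes measured by more than 1; open circles are probe sets not above the dim limit. In 13 of the 16 genes all probe sets have the same sign, and Hoxa3, Meis2 and Pbx2 are the exceptions.

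Other genes of the pathway were read from lists chosen by known role, with 0 members past a limma adjusted p of 0.05 in each of the 6 lists. The counts below stand beside 30.0% of all genes above and 25.4% below, and of all genes 9.25% were higher in Hi and 11.0% lower with an unadjusted p under 0.05. The counts describe the lists only. Among MLL and trithorax genes, which keep Hox loci active, 6 of 14 had both Hi arrays above both Lo arrays and 5 below, and at an unadjusted p under 0.05, 2 were higher and 1 lower. Kmt2a, the MLL gene itself, had 10.63 and 10.55 in Hi, against 11.92 and 11.44 in Lo, a difference of -1.09 ± 0.22 (SE; limma adjusted p = 0.138), while its fusion partner gene Mllt1 differed by 0.51 ± 0.14. The polycomb list held genes that silence Hox loci together with demethylase genes that oppose this silencing. It had 5 of 15 above and 5 below, and an unadjusted limma p under 0.05 for 1 of each. The methyltransferase gene Ezh2 averaged 12.02 in Hi, against 11.14 in Lo, a difference of 0.88 ± 0.13 (limma adjusted p = 0.107). Its paralogue Ezh1 went the other way, with 8.42 and 8.33 in Hi, against 9.29 and 9.67 in Lo, a difference of -1.10 ± 0.19 (limma adjusted p = 0.118).

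The Cdx and retinoic acid genes, upstream inputs to Hox clusters, had 4 of 9 below and 1 above, with 3 lower and 0 higher at an unadjusted p under 0.05. Cdx1, Cdx2 and Cdx4 were under the dim limit on all 4 arrays. The 2 with the smallest p were the retinoic acid receptor gene Rarg, at -1.16 ± 0.13 (SE; limma adjusted p = 0.0947), and Cyp26b1, which degrades retinoic acid, which had 5.01 and 4.81 in Hi, against 8.08 and 7.01 in Lo. Cyp26b1 passed the limit through the Lo arrays, since only 1 Hi array was above it, and its fitted difference of -2.64 ± 0.41 (SE) had a limma adjusted p of 0.107. Of 8 further TALE and Hox partners, 1 lay above and 1 below, each also at an unadjusted p under 0.05. Geminin (Gmnn), a replication inhibitor that also binds Hox proteins, had 12.52 and 12.65 in Hi, against 11.25 and 11.45 in Lo, a difference of 1.23 ± 0.15 (limma adjusted p = 0.0956). The Pbx-interacting protein gene Pbxip1 had 9.60 and 10.06 in Hi, against 10.71 and 10.89 in Lo, a difference of -0.97 ± 0.22.

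Genes bound or regulated by Hoxa9 and Meis1 in blood cells did not lie to one side as a list, with 5 of 19 below, 4 above and a median difference of 0.02, and with 3 lower and 0 higher at an unadjusted p under 0.05. Hlf, a stem cell transcription factor gene, had 10.76 and 10.91 in Hi, against 11.95 and 12.01 in Lo, and Id2, an inhibitor of E proteins, differed by -1.20 ± 0.21 (SE; limma adjusted p = 0.119). The cytokine receptor genes Flt3 and Kit on this list overlapped between the groups, at -0.15 ± 0.18 and -0.27 ± 0.20. Of the noncoding genes of the Hox clusters 2 of 12 were measured. Hoxb5os, antisense to Hoxb5, had 8.86 and 7.11 in Hi, against 8.02 and 9.11 in Lo, with groups that overlapped, and Hoxa11os was under the limit on all arrays.

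Of the marker lists, those of stem cells, erythroid cells, and granulocytes and monocytes moved with the groups, while the others were mixed or overlapped. The counts stand beside 30.0% of all genes above and 25.4% below. For genes with a mean over all 4 arrays above the limit, the shares were 29.1% above and 31.8% below. Of 7 stem cell markers 6 lay below in Hi, and their summed intensity was 6933 to 7014 in Hi, against 15955 to 17640 in Lo. Each sum adds intensities on the linear scale, so the brightest markers of a list weigh most in it. All 6 erythroid markers lay above, with sums of 12624 to 14713 in Hi, against 2167 to 2961 in Lo, and 5 of 6 granulocyte and monocyte markers lay above, with 40673 to 43997 in Hi, against 16952 to 18264 in Lo. Megakaryocyte markers had 3 of 5 above and 2 below, and their sums ran from 5363 to 6220 in Hi, against 4439 to 4930 in Lo. Of 5 T cell markers 2 lay below, Cd8a at -1.19 and Cd3d at -0.77 on the log2 scale, and 1 above. Of 6 stromal and endothelial markers 1 lay below, Col1a2 at -1.44, and 1 above. Of 4 B cell markers 1 lay below and 1 above. The sums for B cells (647 to 773 in Hi, against 701 to 840 in Lo), T cells (465 to 645 in Hi, against 545 to 578 in Lo) and stromal and endothelial cells (709 to 912 in Hi, against 860 to 866 in Lo) overlapped. The gate markers Kit, Cd34 and Flt3 were above the limit on all 4 arrays, and their sums overlapped; Sca1 itself was not analysed here. The part of these markers in the Hox differences was not tested, and in a bulk sample fewer cells of a type and less RNA per cell cannot be told apart. The Myc transcript had 12.41 and 12.41 in Hi, against 11.70 and 10.64 in Lo, and a sign of RNA quality, the excess of the 3′ over the 5′ Gapdh control on the log2 scale, stood at 0.63 and 0.66 in Hi, against 0.74 and 0.78 in Lo. For the Actb control the groups overlapped, with 0.60 and 0.55 in Hi, against 0.84 and 0.57 in Lo. Whether the Gapdh difference bears on the Hox values was not tested.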

How the data were processed

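LSK cells sorted as c-Myc-eGFP Hi or Lo were measured on 2 arrays each (total RNA, amplified with a NuGEN Ovation kit, per the labels' protocols). The authors deposited 1 intensity per probe set and array, made with RMA per the submitters' processing notes; its version and software are not given in the sources used here. RMA scales the arrays to each other, so differences in RNA content per cell are not visible. The medians of the deposited values still differed slightly, at 5.70 and 5.71 in Hi, against 5.78 and 5.82 in Lo. The deposited intensities were on a linear scale and were turned into log2 values with no offset. Of 45101 probe sets, 64 controls were left out. Names came from the platform annotation (34945 probe sets with 1 symbol, 932 with several, 9160 with none), and those with several entered the fit unnamed.

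Hi was set against Lo on the 4 arrays with limma 3.58.1 in R 4.3.3 (lmFit and eBayes, two-sided, no block) and adjusted by Benjamini-Hochberg over 45037 probe sets. Residual degrees of freedom were 2, with a further 1.98 from the prior. Errors are moderated standard errors and intervals are 95%. The steps were tested on simulated data. Members, lists, motifs and the dim limit were chosen with earlier results of these data known. The rule named every member above the dim limit on both arrays of a group, and of each pathway list the 2 genes with the smallest unadjusted p; Hoxb6, Hoxb9, Hoxc4, Hoxc5, Hoxd3, Meis2, the Cdx genes, Flt3, Kit, Cd8a, Cd3d and Col1a2 were named after their values were seen. Protein sequences were not used here. The alternatives were 3 other scalings, a filter on dim probe sets, an offset of 16, the mean of a gene's probe sets, 1 probe set per gene, an intensity trend, no moderation, the replicate number as a block and leaving out each array.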

Additional observations from a re-analysis of the deposited data

How the results depend on the processing

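Of 252 recalculations of the 18 named genes, 243 kept the direction and the side of the threshold. The dim filter, 1 probe set per gene, the intensity trend, no moderation and the block cannot change the difference of a gene. Over probe sets almost no feature passed in any setting, so the side of the threshold could hardly change there. The total is therefore no measure of robustness. Adjusted p-values passed 0.05 only where the fit ran over genes: 2 members were lower in Hi with probe sets averaged per gene (Hoxa5 and Hoxb3) and 1 with 1 probe set per gene (Hoxb3), against 0 over probe sets. These fits test 18193 features in place of 45037. Across all alternatives the difference of Hoxb3 ran from -1.50 to -1.26, of Hoxb5 from -3.14 to -2.01, of Hoxa5 from -2.39 to -1.26, of Meis1 from -1.0 to -0.65, of Hoxa9 from -0.78 to -0.54 and of Pknox1 from 0.38 to 0.64. Leaving out 1 array at a time, the direction turned for Hoxa10 (-0.46 to 1.10), Hoxa7 (-0.48 to 0.23), Hoxb4 (-2.04 to 0.33) and Hoxc6 (-0.15 to 0.21), and for Hoxc6 also with cyclic loess (-0.0068); the cause was not tested. Under the same omissions 11 to 17 members lay above and 16 to 20 below, as fewer arrays leave less room for overlap, and the medians ran from -1.15 to -0.20 for Hoxb, from 0.068 to 0.18 for Hoxc, from 0.10 to 0.28 for Hoxd and from -0.76 to -0.36 for the TALE genes. With the arrays shifted to 1 median, 14 members lay above and 11 below. The median over all members was then 0.00068 in place of -0.094, with -0.39 for Hoxa and -0.76 for Hoxb. With the filter on dim probe sets 18 of 38 members remained, 2 of them above, with a median of -0.59 over them and 0.033 for the 1 Hoxc gene. The Hoxc median was 0.044 with the offset of 16, and the Hoxb median -0.50 with the mean of a gene's probe sets; the cause was not tested. Same-numbered arrays deviated together by r = 0.07 only, so the numbers were not taken as pairs. With the replicate block 0 members passed, as without it, and the smallest adjusted p over all probe sets was 0.193; in this balanced design the block cannot change a difference (median -0.49 for Hoxa, -0.85 for Hoxb). Members near the dim limit allow no statement on a fold.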
